A study of Mus musculus with 9 samples.

Results

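The diet changes described here are those that left ventricular tissue of mice on a high-fat diet showed whichever vector the mice had received. Of the 9 libraries of the series, 6 came from the high-fat diet and were set against 3 from the normal diet. All mice were wild type and all carried an adeno-associated virus (AAV) vector. The 3 normal-diet mice had received a control vector (ND+AAV-CON), 3 high-fat mice the same control vector (HFD+AAV-CON), and 3 high-fat mice a vector for BCKDK (HFD+AAV-BCKDK), the mitochondrial kinase that inhibits the branched-chain ketoacid dehydrogenase. No group combined the normal diet with the BCKDK vector, so a value of HFD+AAV-BCKDK holds diet and vector together. Within the high-fat diet, values of HFD+AAV-CON are also given as those with the control vector, and values of HFD+AAV-BCKDK as those with the BCKDK vector. Age, sex, the composition and length of the diet, and the dose, serotype and promoter of the vectors are not stated in the sources used here. The labels call the 3 samples of a group biological replicates.

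A high-fat diet confronts the heart with more fatty acid and, over time, with obesity and insulin resistance. Long-chain fatty acids activate the receptor PPARα, which drives genes of fatty acid uptake and oxidation in heart muscle. Cells whose endoplasmic reticulum holds too many unfolded proteins switch on the unfolded protein response, which raises the chaperones of that compartment and, through the factor ATF4, genes of amino acid supply. The heat shock response does the same for cytosolic chaperones. Both responses are known in stressed heart muscle, and so is the deposition of collagen by cardiac fibroblasts.

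The libraries held between 32803233 and 45483044 counts in annotated genes. HFD+AAV-CON stood apart from the other 6 libraries in several ways. Mitochondrially encoded transcripts took 26.1% to 39.9% of its counts, against 42.1% to 47.6% elsewhere, and its summed CPM (a count scaled to the size of its library) of 16 cardiomyocyte markers was 28420 to 50440, against 62260 to 65870 in ND+AAV-CON and 55520 to 60560 in HFD+AAV-BCKDK. HFD+AAV-CON replicate 3 differed further: unnamed loci took 1.02% of its counts, against 4.75% to 6.02% in the other 8 libraries, and 67.4% of genes tested had a value there between those of replicates 1 and 2, against 13.2% to 37.7% for other libraries. Whether it is an independent mouse could not be settled from the counts, so the counts of shared genes are also given without it. Bckdk, the gene in the vector, stood at 78.6, 70.3 and 70.6 CPM under normal diet, 37.1, 65 and 49.4 with the control vector and 111, 126 and 119.9 with the BCKDK vector. The HFD+AAV-BCKDK libraries were highest, as the labels imply, and overlapped no other group. Against ND+AAV-CON their log2 fold change was 0.70 (SE 0.17), which did not pass its own edgeR test (adjusted p = 0.070). In HFD+AAV-CON it was -0.54 (SE 0.17), which passed (adjusted p = 0.030). The difference between the high-fat groups was 1.24 (SE 0.17) and passed (adjusted p = 0.0016).

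A gene was called a shared diet change when it differed from ND+AAV-CON in the same direction in both high-fat groups, judged by the larger of its 2 p-values after adjustment over the 14160 genes tested. By that test 55 genes rose (0.388% of genes tested) and 73 fell (0.516%), 128 in all (0.904%). No gene passed with opposite signs, although 150 genes had an unadjusted p under 0.05 in both groups with opposite signs; 17 passed in DESeq2, and 2 in edgeR when each comparison was adjusted by itself. In each of the 128 genes all 6 high-fat libraries lay outside the range of the 3 ND+AAV-CON libraries; the groups of 6 and 3 did not overlap for 15.6% of all genes tested, with all 6 above in 6.07% and all 6 below in 9.5%. The median size of the change was 0.99 on the log2 scale in HFD+AAV-CON and 0.84 with the BCKDK vector, and 15 of the genes that rose and 21 of those that fell changed at least 2-fold in both. Both comparisons use the same 3 ND+AAV-CON libraries, so a deviation of those libraries enters both values of a gene.

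**Figure D1:**
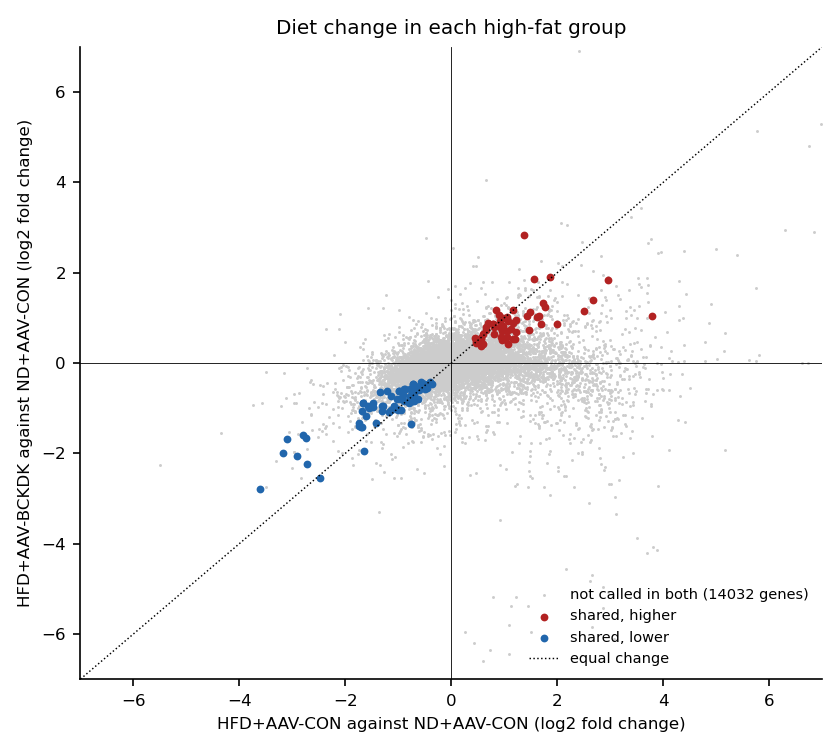
Log2 fold change against ND+AAV-CON of each gene tested, in HFD+AAV-CON (x axis) and HFD+AAV-BCKDK (y axis), with the 55 shared genes that rose in red, those that fell in blue and the other 14032 in grey. The grey cloud spreads far more along the x axis than along the y axis. Most shared genes lie nearer the dotted line of equal change, which follows in part from their choice for passing with the same sign on both axes. Of the 128 shared genes, 97 had the larger change in HFD+AAV-CON. Outside the axes lie 11 genes, Cyp1a1 among them, and both axes share the ND+AAV-CON libraries.

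The shared genes are a small part of what differed on average. When the 2 high-fat groups were averaged with equal weight, 1408 genes were higher than in ND+AAV-CON (9.94%) and 1325 lower (9.36%), together 19.3% of genes tested, but only 128 of these 2733 genes (4.68%) were shared changes. Of the 2733, 2605 were called in HFD+AAV-CON and 333 with the BCKDK vector, and 1628 (59.6%) also differed between the 2 high-fat groups. HFD+AAV-CON alone differed from ND+AAV-CON in 6134 genes (43.3%) and HFD+AAV-BCKDK in 347 (2.45%). Both tests used 1 spread per gene fitted to all 9 libraries, though replicates differed most within HFD+AAV-CON. The count of HFD+AAV-BCKDK fell to 43, 64 and 87 without ND+AAV-CON replicates 1, 2 and 3, to 117, 73 and 87 without its own replicates 1, 2 and 3, to 122 without HFD+AAV-CON replicate 3 and to 136 under total-count scaling, and it was 744 without HFD+AAV-CON replicate 2. That of HFD+AAV-CON was 4050 without its replicate 3 and 4050 to 7325 over the 9 fits that left out 1 library. Total-count scaling changed the split into higher and lower genes from 3215 and 2919 to 5986 and 934 in HFD+AAV-CON, and from 167 and 180 to 51 and 85 in HFD+AAV-BCKDK. The count over the average moved by more than 1.5 times when 1 of several libraries was left out: higher and lower genes numbered 502 and 515 without ND+AAV-CON replicate 1, 390 and 411 without ND+AAV-CON replicate 2, 2367 and 2560 without HFD+AAV-CON replicate 2, 809 and 726 without HFD+AAV-CON replicate 3, 924 and 859 without HFD+AAV-BCKDK replicate 2 and 843 and 883 without HFD+AAV-BCKDK replicate 3; without ND+AAV-CON replicate 3 the lower genes numbered 784. The genes described from here on were taken from the shared changes, not from the average.

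The size of the shared changes is given by library as a description, since the genes were chosen for differing in both groups. For the genes that rose, the median log2 difference from the ND+AAV-CON mean was 1.01, 1.03 and 1.03 in the HFD+AAV-CON libraries and 0.85, 0.79 and 0.74 with the BCKDK vector. For the genes that fell with reads in every library, it was -1.06, -0.92 and -0.97 in HFD+AAV-CON and -0.86, -0.83 and -0.75 with the BCKDK vector. HFD+AAV-CON replicate 2, the library of that group with the most mitochondrial transcripts, was the closest of its group to ND+AAV-CON for 70 of 127 genes, against 30 and 27 for replicates 1 and 3.

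How many genes passed depended on single libraries. The shared calls were 3 without ND+AAV-CON replicate 1, 7 without ND+AAV-CON replicate 2 and 50 without ND+AAV-CON replicate 3. They were 156, 242 and 38 without HFD+AAV-CON replicates 1, 2 and 3, and 34, 25 and 43 without HFD+AAV-BCKDK replicates 1, 2 and 3. The median adjusted p of the 128 genes lay between 0.0165 and 0.122 in these fits, and none exceeded 0.197. Tnfrsf12a, Serpinh1 and Cirbp were the 3 genes called in every one of them and under every scaling and tool tried. Scaling by total counts, which moved the median log2 fold change of all genes to 0.40 in HFD+AAV-CON and -0.08 with the BCKDK vector, left 39 of the 128 called and turned the HFD+AAV-CON value of 2 of them, Abhd4 and Hbp1, above 0.

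Tnfrsf12a encodes the receptor for the cytokine TWEAK, a protein that is low in resting heart muscle and rises on injury. It lies on mm10 (GRCm38) chromosome 17 from 23675445 to 23677468 on the minus strand. Its level was 23.2, 24.6 and 23.6 CPM under normal diet, 94.8, 75.5 and 89.1 with the control vector and 82.3, 104 and 81.6 with the BCKDK vector. All 6 high-fat libraries were at least 3 times as high as any normal-diet library, and the 2 high-fat groups overlapped. Tnfrsf12a rose by 1.86 (SE 0.12) with the control vector and 1.91 (SE 0.12) with the BCKDK vector on the log2 scale (adjusted p = 0.00065), and the difference between the high-fat groups was 0.05 (SE 0.12, adjusted p = 0.771). The gene of its ligand, Tnfsf12, chosen after its values were seen, had log2 fold changes of 0.07 (SE 0.12) with the control vector and -0.13 (SE 0.12) with the BCKDK vector. It did not pass. Tnfrsf12a was also the 1 of 35 tested genes of apoptosis and p53 targets with a shared change, beside 0.388% of all genes that rose.

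The other genes that rose most in both groups include a secreted signal and a kinase. Edn3, an endothelin peptide, was at 1.86, 2.11 and 1.62 CPM under normal diet, 3.87, 6.35 and 4.34 with the control vector and 10.5, 17.7 and 11.7 with the BCKDK vector, with no overlap between any of the 3 groups. Edn3 rose by 1.38 (SE 0.26) with the control vector and 2.84 (SE 0.26) with the BCKDK vector (adjusted p = 0.0458), called in 1 of the 9 fits that left out 1 library (largest adjusted p 0.181). It was 1 of 2 shared genes whose change was larger in HFD+AAV-BCKDK by the test of the difference itself. Nuak1, a kinase related to AMPK, rose by 1.16 (SE 0.13) with the control vector and 1.17 (SE 0.13) with the BCKDK vector (adjusted p = 0.00805), from 12 ± 1.17 CPM (SD, n = 3) under normal diet to 26.7 ± 4.03 with the control vector and 27 ± 2.83 with the BCKDK vector. These levels are from bulk tissue, in which a change in the number of cells of a type and a change of RNA per cell cannot be told apart.

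Clec4d, a lectin receptor of myeloid cells, was at 0.82, 0.945 and 1.19 CPM under normal diet, 7.94, 7.92 and 7.32 with the control vector and 4.92, 2.93 and 2.73 with the BCKDK vector. Clec4d rose by 2.97 (SE 0.26) with the control vector and 1.83 (SE 0.26) with the BCKDK vector (adjusted p = 0.0161), called in 7 of the 9 fits that left out 1 library (largest adjusted p 0.0958). Neutrophil markers moved with it: the summed CPM of 11 markers, 1 of them at 0 in every library, was 3.80 to 5.03 in ND+AAV-CON, 13.4 to 16.5 in HFD+AAV-CON and 5.62 to 12.8 in HFD+AAV-BCKDK. None of the 7 neutrophil markers that could be tested had a shared change. The 21 macrophage and monocyte markers summed to 807 to 1102 CPM in ND+AAV-CON, 2105 to 3364 in HFD+AAV-CON and 657.5 to 840 with the BCKDK vector, so they did not separate the 6 from the 3. The part of these cells in the rise of Clec4d was not tested.

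**Figure D2:**
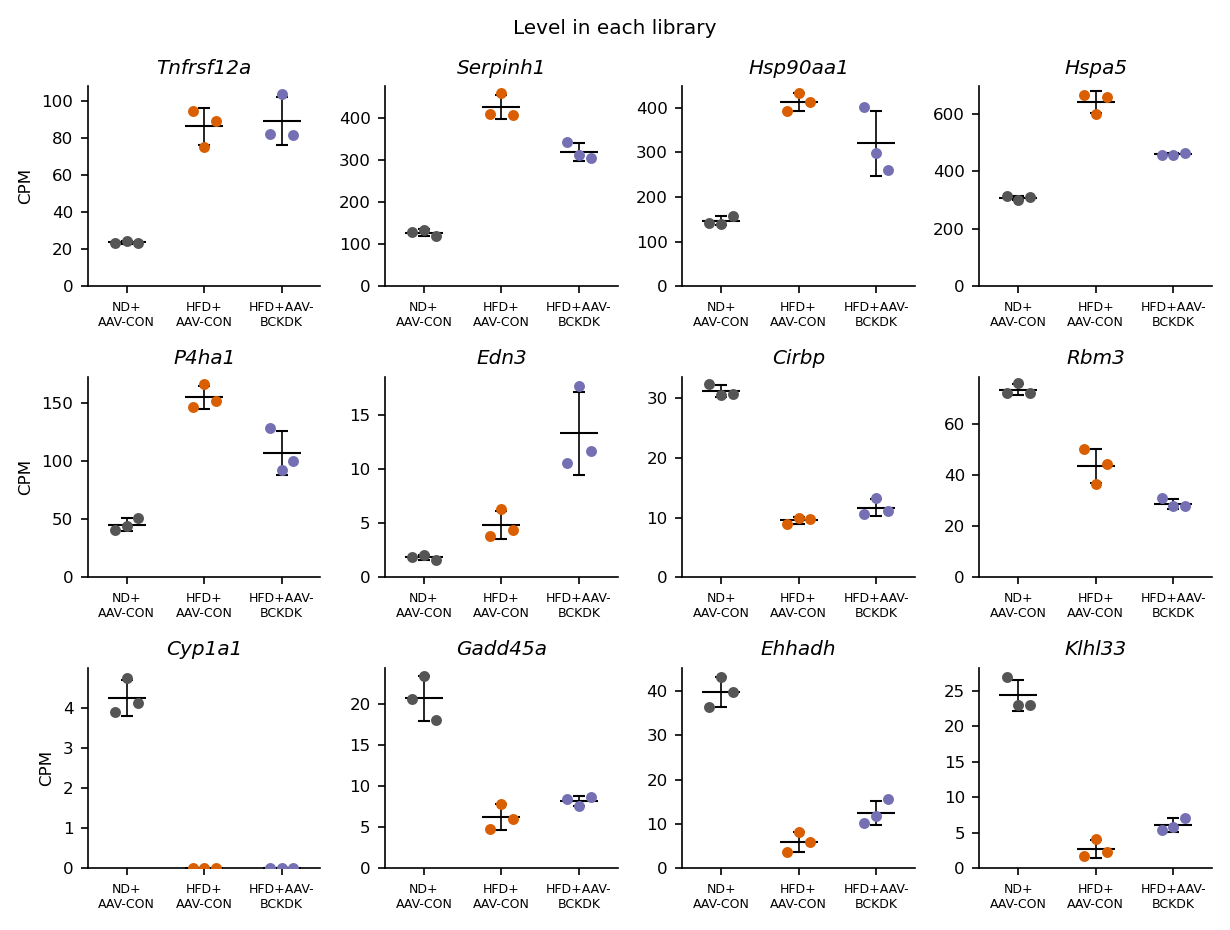
CPM (y axis, from 0) of 12 genes with a shared diet change in each library, by group (x axis); points are libraries, and bars are the mean and SD of 3 libraries. In every panel the 6 high-fat libraries lie on 1 side of the 3 ND+AAV-CON libraries; Edn3 and Rbm3 changed more in HFD+AAV-BCKDK, and Cyp1a1 had no read in any high-fat library.

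Members of the unfolded protein response and the integrated stress response formed the largest group of shared changes among the 35 pathway lists examined. Of 35 members tested, 11 rose and none fell, beside 0.388% of all genes tested that rose. They are chaperones and foldases of the endoplasmic reticulum (Hspa5, Hsp90b1, Hyou1, Calr, Pdia6, Sdf2l1), secreted or resident stress proteins (Manf, Creld2), the transcription factors Atf4 and Atf5, and Mthfd2, a mitochondrial folate enzyme driven by ATF4. In HFD+AAV-BCKDK alone 15 of the 35 rose (1.18% of all genes), but 1 under total-count scaling, 10 without HFD+AAV-CON replicate 3, 3, 3 and 7 without ND+AAV-CON replicates 1, 2 and 3 and 7, 5 and 5 without HFD+AAV-BCKDK replicates 1, 2 and 3. In HFD+AAV-CON 28 rose (22.7%) and 3 fell (20.6%). The median log2 fold change of the list was 1.12 in HFD+AAV-CON and 0.48 with the BCKDK vector, against 0.00 and -0.03 over all genes tested, and 28 of the 35 were above 0 in both groups, against 28.2% of all genes.

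Hspa5, the main chaperone of the endoplasmic reticulum, was at 313, 300.4 and 312 CPM under normal diet, 666, 599 and 658 with the control vector and 457, 456 and 463 with the BCKDK vector. The 3 groups did not overlap, with HFD+AAV-BCKDK between the others, and Hspa5 rose by 1.06 (SE 0.09) with the control vector and 0.57 (SE 0.09) with the BCKDK vector (adjusted p = 0.0198). Hyou1, a chaperone of the same compartment, was at 18.5, 19.2 and 20.9 CPM under normal diet, 58, 51.6 and 52.1 with the control vector and 33.9, 30.7 and 33.3 with the BCKDK vector. Hyou1 rose by 1.47 (SE 0.08) with the control vector and 0.74 (SE 0.08) with the BCKDK vector (adjusted p = 0.00718). Sdf2l1, a partner of Hspa5, was at 3.03, 3.46 and 3.91 CPM under normal diet, 24, 16.8 and 18.2 with the control vector and 7.51, 7.0 and 8.64 with the BCKDK vector. Sdf2l1 rose by 2.5 (SE 0.17) with the control vector and 1.15 (SE 0.17) with the BCKDK vector (adjusted p = 0.0183). Mthfd2 was at 2.16, 2.02 and 2.9 CPM under normal diet, 18.5, 11.9 and 15.2 with the control vector and 6.62, 6.01 and 6.1 with the BCKDK vector. Mthfd2 rose by 2.68 (SE 0.20) with the control vector and 1.40 (SE 0.19) with the BCKDK vector (adjusted p = 0.0161). In each of these the HFD+AAV-CON libraries were highest and the normal-diet libraries lowest.

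In the transcription factors Atf4 and Atf5 the 2 high-fat groups overlapped. Atf4 was at 77.6, 79.8 and 85.1 CPM under normal diet, 116, 123 and 118 with the control vector and 124, 107 and 107 with the BCKDK vector. Atf4 rose by 0.56 (SE 0.08) with the control vector and 0.48 (SE 0.08) with the BCKDK vector (adjusted p = 0.0377). Atf5 rose by 0.65 (SE 0.09) with the control vector and 0.79 (SE 0.09) with the BCKDK vector (adjusted p = 0.0133), but it overlaps Nup62 on the opposite strand and the use of strand in counting is not stated in the sources used here. Manf rose by 1.70 (SE 0.11) with the control vector and 0.87 (SE 0.11) with the BCKDK vector (adjusted p = 0.0119). It overlaps Dcaf1 on the opposite strand and Rbm15b on the same strand. The other shared members were Hsp90b1 (1.23 and 0.69, HFD+AAV-CON first), Creld2 (1.99 and 0.87), Pdia6 (1.21 and 0.53) and Calr (1.17 and 0.53), all on the log2 scale. Hspa5, Creld2, Pdia6, Atf4 and Calr were named after their values were seen.

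Members of the list that did not pass were not all flat. Gdf15, a stress cytokine downstream of ATF4, was at 1.34, 1.05 and 1.57 CPM under normal diet, 42.4, 11 and 30 with the control vector and 11, 6.79 and 4.44 with the BCKDK vector. It lay above normal diet in all 6 libraries but with an adjusted p of 0.0675. Pdia4 had log2 fold changes of 1.90 (SE 0.16) with the control vector and 0.77 (SE 0.16) with the BCKDK vector with an adjusted p of 0.0661. Xbp1, a transcription factor of the response, had 0.79 (SE 0.14) with the control vector and 0.21 (SE 0.14) with the BCKDK vector, and only the first of these 2 values passed its own test. Of the 11 calls, 11 remained without HFD+AAV-CON replicate 1 or 2, 5 without ND+AAV-CON replicate 3, 4 without HFD+AAV-CON replicate 3, 2, 2 and 3 without HFD+AAV-BCKDK replicates 1, 2 and 3, and 0 without ND+AAV-CON replicate 1 or 2; under total-count scaling 1 remained.

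**Figure D3:**
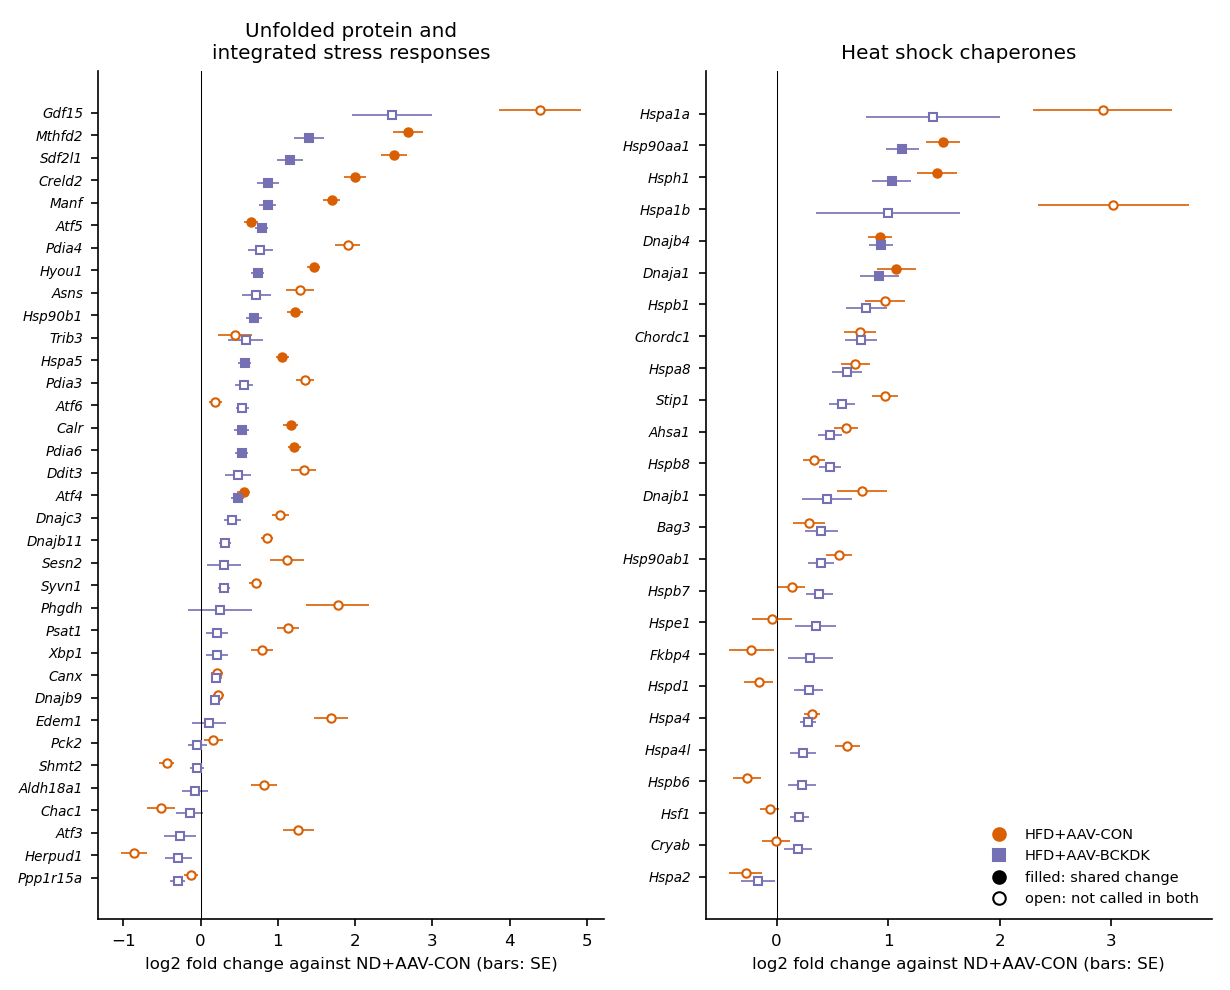
Log2 fold change against ND+AAV-CON (x axis, bars are SE) of every tested member of 2 lists, in HFD+AAV-CON (circles) and HFD+AAV-BCKDK (squares), with shared changes filled. Most endoplasmic reticulum chaperones moved further in HFD+AAV-CON, and of the filled heat shock genes Dnajb4 and Dnaja1 lie close together while Hsph1 and Hsp90aa1 lie further out in HFD+AAV-CON; 11 and 4 members were called.

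The promoters of 5 of these genes hold the endoplasmic reticulum stress element, the site at which ATF6 and NF-Y act in chaperone genes, and the stretches that carry it are shown with the element in capitals and 30 bases on each side, on the strand of the gene, read from RefSeq promoters of GRCm38.p6 (250 bases before to 50 after the start). The motif searched, on both strands, was CCAAT followed by CCACG with any 9 bases between them.
Hspa5: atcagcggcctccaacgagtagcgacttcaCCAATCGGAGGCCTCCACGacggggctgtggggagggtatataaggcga
Calr: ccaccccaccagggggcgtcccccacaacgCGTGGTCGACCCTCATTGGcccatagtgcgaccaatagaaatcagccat
Hsp90b1: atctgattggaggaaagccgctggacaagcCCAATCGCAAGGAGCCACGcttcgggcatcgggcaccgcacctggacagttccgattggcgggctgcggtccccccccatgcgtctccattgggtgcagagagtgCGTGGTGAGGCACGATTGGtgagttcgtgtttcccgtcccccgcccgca
Pdia6: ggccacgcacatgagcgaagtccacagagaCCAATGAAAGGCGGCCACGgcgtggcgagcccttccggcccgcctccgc
Creld2: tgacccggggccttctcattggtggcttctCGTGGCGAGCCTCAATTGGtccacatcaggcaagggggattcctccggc
These lie at chr2:34771995-34772073 (plus strand), chr8:84847045-84847123 (minus), chr10:86705503-86705686 (minus), chr12:17266461-17266539 (plus) and chr15:88819490-88819568 (plus). Hsp90b1 holds 2 copies in opposite orientations, and the copies of Calr and Creld2 read on the reverse strand. The elements end between 47 and 194 bases before the start, nearest in Hspa5. Of 32851 promoter entries, 39 hold the motif (0.119%), and of 11010 genes tested with an entry, 18 do (0.163%). Of 43 shared genes that rose and have an entry, 5 do, and of 54 that fell, 0. All 5 are among the 9 shared members of the list with an entry. The element belongs to chaperone genes of this kind, so its presence describes them and was not a test. Hyou1 and Manf have no entry. Over the whole list 8 of 32 promoters hold it, among them Canx, Dnajc3 and Syvn1, which had no shared change.

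Some cytosolic heat shock chaperones also rose under either vector. Of 25 members tested, 4 rose (0.388% of all genes) and none fell: Hsp90aa1, the inducible HSP90, Hsph1, an exchange factor of HSP70, and the J-domain proteins Dnajb4 and Dnaja1. Hsp90aa1 was at 142, 139 and 158 CPM under normal diet, 392, 434 and 413 with the control vector and 402, 299 and 260.1 with the BCKDK vector. Hsp90aa1 rose by 1.5 (SE 0.15) with the control vector and 1.13 (SE 0.15) with the BCKDK vector (adjusted p = 0.0135). Dnajb4 was at 115, 115 and 112 CPM under normal diet, 211, 225 and 216 with the control vector and 246, 224 and 186 with the BCKDK vector. Dnajb4 rose by 0.93 (SE 0.10) with the control vector and 0.94 (SE 0.10) with the BCKDK vector (adjusted p = 0.00718). Hsph1 rose by 1.44 (SE 0.18) with the control vector and 1.03 (SE 0.18) with the BCKDK vector (adjusted p = 0.0339), and Dnaja1 by 1.08 (SE 0.17) with the control vector and 0.92 (SE 0.17) with the BCKDK vector (adjusted p = 0.0458). Dnaja1 overlaps Smu1 on the opposite strand. HFD+AAV-BCKDK replicate 1 was the highest of its group in all 4, and for Hsp90aa1 the HFD+AAV-BCKDK libraries spread from 260 to 402 CPM. The difference between the high-fat groups did not pass for any of the 4, from -0.41 (SE 0.17, adjusted p = 0.0907) for Hsph1 to 0.01 (SE 0.10, adjusted p = 0.956) for Dnajb4.

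The list as a whole had a median log2 fold change of 0.62 in HFD+AAV-CON and 0.45 with the BCKDK vector, and 18 of 25 members were above 0 in both groups. In HFD+AAV-BCKDK alone 8 rose (1.18% of all genes), but 5 under total-count scaling, 3 without HFD+AAV-CON replicate 3, 13 without HFD+AAV-CON replicate 2, 1, 1 and 2 without ND+AAV-CON replicates 1, 2 and 3 and 4, 2 and 3 without HFD+AAV-BCKDK replicates 1, 2 and 3. The strongly inducible Hspa1a was scattered, at 20.9, 6.45 and 11.6 CPM under normal diet, 78.4, 127 and 89.4 with the control vector and 70.1, 18.2 and 14.6 with the BCKDK vector. It did not pass as a shared change (adjusted p = 0.43). It and Hspa1b are near-identical copies, so their reads may be split. Chordc1 and Stip1, co-chaperones of HSP90, had adjusted p-values of 0.0523 and 0.0575. Outside the list, and named after their values were seen, Hspa1l, another HSP70 gene of the same cluster, rose by 0.85 (SE 0.16) with the control vector and 1.19 (SE 0.16) with the BCKDK vector (adjusted p = 0.0458), called in 0 of the 9 fits that left out 1 library (largest adjusted p 0.178). St13, an HSP70-interacting protein, rose by 0.47 (SE 0.08) with the control vector and 0.44 (SE 0.08) with the BCKDK vector (adjusted p = 0.0458), called in 1 of the 9 fits that left out 1 library (largest adjusted p 0.178). The heat shock element, searched on both strands as GAA, TTC and GAA with any 2 bases between neighbours, was found in the promoter of Hsph1 and not in those of Dnajb4 and Dnaja1. Of all promoter entries 0.603% hold it, as do 0.545% of genes tested with an entry, and Hsp90aa1 has no entry. Of the 4 calls, 4 remained without HFD+AAV-CON replicate 1 or 2, 2 without ND+AAV-CON replicate 3 or HFD+AAV-CON replicate 3, 2, 1 and 2 without HFD+AAV-BCKDK replicates 1, 2 and 3, and 0 without ND+AAV-CON replicate 1 or 2.

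Cirbp and Rbm3, RNA-binding proteins that cells raise in the cold, both fell. Of 9 members tested, 3 fell (0.516% of all genes) and 1 rose (0.388%). Cirbp, the cold-inducible RNA-binding protein, lies on chromosome 10 from 80165985 to 80172786 on the plus strand. It was at 32.4, 30.6 and 30.8 CPM under normal diet, 8.89, 9.91 and 9.85 with the control vector and 10.6, 13.3 and 11.2 with the BCKDK vector. The highest high-fat library, at 13.3 CPM, lay below the lowest normal-diet library, at 30.6 CPM. Cirbp fell with log2 fold changes of -1.71 (SE 0.10) with the control vector and -1.42 (SE 0.10) with the BCKDK vector (adjusted p = 0.00065). Rbm3, its close relative, was at 72.1, 75.7 and 72 CPM under normal diet, 49.9, 36.4 and 44 with the control vector and 31.1, 27.6 and 27.7 with the BCKDK vector, and the 3 groups did not overlap. Rbm3 fell with log2 fold changes of -0.75 (SE 0.11) with the control vector and -1.35 (SE 0.11) with the BCKDK vector (adjusted p = 0.0193). The fall was further in HFD+AAV-BCKDK, with a difference of -0.60 (SE 0.11, adjusted p = 0.00473). Srsf5, a splicing factor, was at 92.1, 88.3 and 72 CPM under normal diet, 52.7, 45.6 and 53.2 with the control vector and 43.6, 46 and 51.3 with the BCKDK vector. Srsf5 fell with -0.74 (SE 0.11) with the control vector and -0.84 (SE 0.11) with the BCKDK vector (adjusted p = 0.0229), and its high-fat groups overlapped.

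Sfpq, a nuclear RNA-binding protein of paraspeckles, was the member that rose, by 0.61 (SE 0.07) with the control vector and 0.43 (SE 0.07) with the BCKDK vector (adjusted p = 0.0265). Clk1, Clk4, Rbm5 and Rbm10 had changes between -0.15 and 0.21 in either group and did not pass in both. The ninth member, Hspa1b, is itself a heat shock gene. The list median was 0.05 in HFD+AAV-CON and 0.03 with the BCKDK vector. Cirbp kept its call in every fit that left out 1 library, while of the 4 calls 1 remained without ND+AAV-CON replicate 1 or 2, HFD+AAV-CON replicate 3 or HFD+AAV-BCKDK replicate 2, and 2 without ND+AAV-CON replicate 3 or HFD+AAV-BCKDK replicates 1 or 3. Under total-count scaling 1 remained, and Rbm3 then had -0.33 in HFD+AAV-CON. Body temperature and the time of tissue collection are not stated in the sources used here.

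Among extracellular matrix genes, the shared changes included subunits of prolyl hydroxylase and a collagen chaperone, and no fibrillar collagen chain. Of 62 members tested 5 rose (0.388% of all genes) and none fell. They were Serpinh1, the collagen chaperone HSP47, P4ha1 and P4ha2, catalytic subunits of prolyl hydroxylase, Col4a1, a basement membrane collagen, and Thbs1, thrombospondin. Other collagen-modifying enzymes of the list, such as Plod1, Plod2 and Lox, had no shared change. Serpinh1 lies on chromosome 7 from 99345376 to 99353239 on the minus strand. It was at 129, 135 and 119.9 CPM under normal diet, 410.5, 459 and 408 with the control vector and 344, 311 and 304 with the BCKDK vector. Serpinh1 rose by 1.74 (SE 0.10) with the control vector and 1.32 (SE 0.10) with the BCKDK vector (adjusted p = 0.00065). P4ha1 was at 40.5, 43.9 and 51.5 CPM under normal diet, 147, 166 and 152 with the control vector and 129, 92.2 and 100.3 with the BCKDK vector. P4ha1 rose by 1.78 (SE 0.14) with the control vector and 1.24 (SE 0.14) with the BCKDK vector (adjusted p = 0.00718). P4ha2 rose by 1.06 (SE 0.12) with the control vector and 1.01 (SE 0.12) with the BCKDK vector (adjusted p = 0.00877), a nearly equal amount in both groups. In Serpinh1 and P4ha1 the HFD+AAV-BCKDK libraries lay between the other groups without overlap.

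Thbs1 was at 16.6, 13.5 and 13.8 CPM under normal diet, 228, 174 and 204 with the control vector and 40.7, 24.2 and 25.8 with the BCKDK vector. It rose by 3.79 (SE 0.21) with the control vector and 1.05 (SE 0.20) with the BCKDK vector (adjusted p = 0.0462). The high-fat groups differed by -2.74 (SE 0.20, adjusted p = 0.000606). Col4a1 rose by 0.98 (SE 0.09) with the control vector and 0.53 (SE 0.09) with the BCKDK vector (adjusted p = 0.0394), and it overlaps Col4a2 on the opposite strand, whose adjusted p was 0.0815. Col1a1, a fibrillar collagen named after its values were seen, was at 51.6, 54.9 and 48.2 CPM under normal diet, 349, 141 and 261 with the control vector and 57.2, 71.3 and 69 with the BCKDK vector. Its log2 fold changes were 2.28 (SE 0.27) with the control vector and 0.35 (SE 0.26) with the BCKDK vector, of which the first passed. Over the list the median was 1.47 in HFD+AAV-CON, where 55 members rose (22.7% of all genes), and 0.05 in HFD+AAV-BCKDK, where 5 rose (1.18%), 3 under total-count scaling or without HFD+AAV-CON replicate 3, any 1 ND+AAV-CON library or any 1 HFD+AAV-BCKDK library and 9 without HFD+AAV-CON replicate 1 or 2; under total-count scaling the latter median was -0.01. The 16 fibroblast markers summed to 2667 to 2784 CPM in ND+AAV-CON, 3373 to 5038 in HFD+AAV-CON and 2538 to 2739 with the BCKDK vector. Of the 5 calls, 5 remained without HFD+AAV-CON replicate 1 or 2, 3 without ND+AAV-CON replicate 3, HFD+AAV-CON replicate 3 or any 1 HFD+AAV-BCKDK library, and 1 without ND+AAV-CON replicate 1 or 2.

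**Figure D4:**
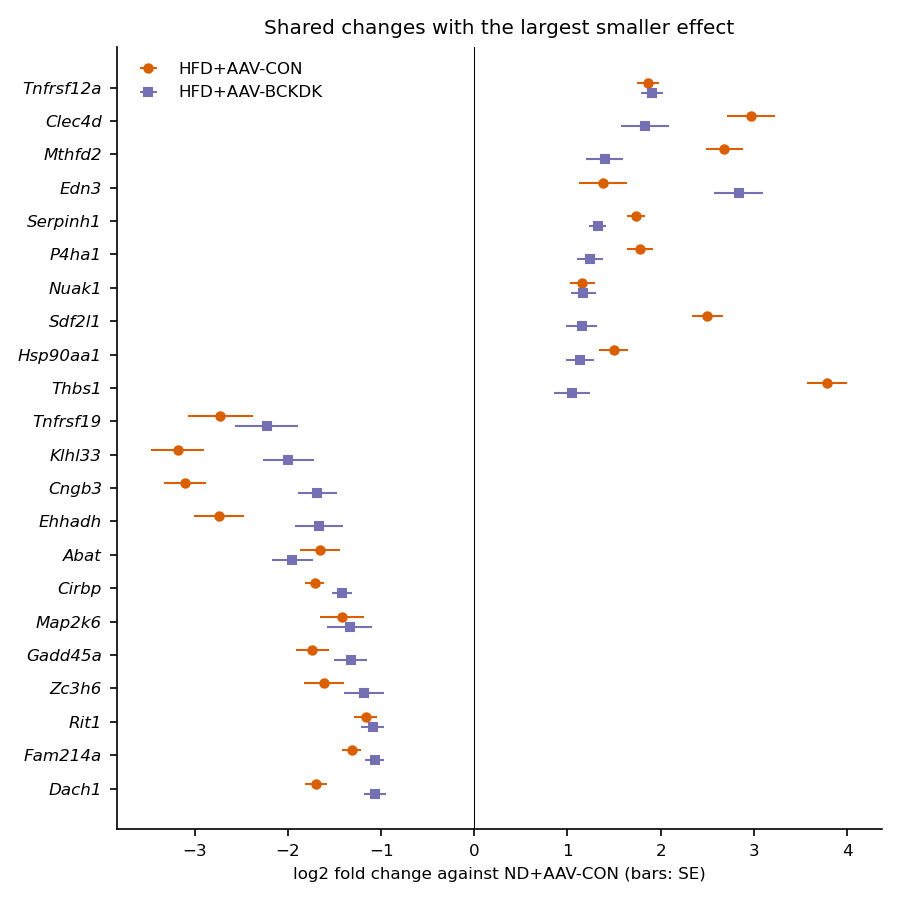
Log2 fold change against ND+AAV-CON (x axis, bars are SE) of 10 higher and 12 lower shared genes, taken from those with the largest smaller change of the 2 groups and an average log2 CPM of at least 1, in HFD+AAV-CON (circles) and HFD+AAV-BCKDK (squares). Tnfrsf12a and Nuak1 have nearly equal values, Edn3 is further out in HFD+AAV-BCKDK, and Thbs1 is furthest apart.

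Cyp1a1, the cytochrome P450 that the aryl hydrocarbon receptor induces, was not detected under the high-fat diet. It lies on chromosome 9 from 57687928 to 57703824 on the plus strand. It received 142, 176 and 163 counts under normal diet and 0 counts in all 6 high-fat libraries. Against a floor of 3 counts per library, at most 0.106 CPM, it was at least 40.1-fold lower (adjusted p = 0.00718). It was the 1 shared change among 10 tested genes of that receptor, beside 0.516% of all genes that fell. Ahrr, the receptor's repressor and another of its targets, was at 3.75, 4.67 and 5.91 CPM under normal diet, 2.34, 1.59 and 2.41 with the control vector and 3.14, 2.05 and 2.14 with the BCKDK vector. It lay below normal diet in all 6 libraries with an adjusted p of 0.146. Tiparp and Cyp1b1, further targets, had log2 fold changes of 0.50 and -0.14 and 0.74 and -0.07 (HFD+AAV-CON first), and Ahr itself had -0.04 and 0.25. The call of Cyp1a1 was lost without ND+AAV-CON replicate 1 or 2, with a largest adjusted p of 0.0704.

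Other genes that fell most belong to several families. Klhl33, a Kelch protein, lies on chromosome 14 from 50888582 to 50897507 on the minus strand. It was at 26.9, 23.1 and 23 CPM under normal diet, 1.72, 4.17 and 2.29 with the control vector and 5.32, 5.8 and 7.15 with the BCKDK vector. Klhl33 fell with log2 fold changes of -3.18 (SE 0.28) with the control vector and -1.99 (SE 0.27) with the BCKDK vector (adjusted p = 0.0137). Cngb3, a subunit of the cyclic nucleotide-gated channel of cone cells, was at 6.94, 6.56 and 5.2 CPM under normal diet, 0.561, 0.888 and 0.739 with the control vector and 1.98, 1.8 and 2.02 with the BCKDK vector. Cngb3 fell with -3.11 (SE 0.23) with the control vector and -1.69 (SE 0.21) with the BCKDK vector (adjusted p = 0.0107). In both genes the HFD+AAV-CON libraries were lowest and did not overlap those of HFD+AAV-BCKDK. Tnfrsf19, a receptor of the TNF receptor family, fell with -2.72 (SE 0.35) with the control vector and -2.23 (SE 0.34) with the BCKDK vector (adjusted p = 0.0229), from 5.28 ± 1.27 CPM (SD, n = 3) under normal diet to 0.809 ± 0.375 with the control vector and 1.12 ± 0.232 with the BCKDK vector. Dach1, a transcription cofactor linked to coronary artery growth, fell with -1.69 (SE 0.12) with the control vector and -1.06 (SE 0.12) with the BCKDK vector (adjusted p = 0.00718). Rit1, a Ras-like GTPase, fell with -1.17 (SE 0.12) with the control vector and -1.09 (SE 0.12) with the BCKDK vector (adjusted p = 0.00718), and its high-fat groups overlapped. Fam214a fell with -1.31 and -1.07, and Zc3h6, a zinc finger gene that overlaps Gm10762, with -1.61 and -1.18. Of the 9 fits that left out 1 library, Fam214a was called in 8, Dach1 and Rit1 in 7 and Cngb3 in 6. Klhl33 was called in 4 and Tnfrsf19 and Zc3h6 in 3. The summed CPM of the 16 cardiomyocyte markers was also lower in all 6 high-fat libraries than in the 3 others. None of the 16 had a shared change, and 3 were above 0 in HFD+AAV-BCKDK. Their median log2 fold change was -0.74 in HFD+AAV-CON and -0.11 with the BCKDK vector. Pericyte and smooth muscle markers summed to 1500 to 1590 CPM in ND+AAV-CON, 914 to 1257 in HFD+AAV-CON and 1425 to 1468 in HFD+AAV-BCKDK. Adipocyte markers summed to 1052 to 1216, 442 to 712 and 866 to 976 CPM in the same order. These sums too were lower in all 6 high-fat libraries. Of the 12 adipocyte markers 5 could be tested, and 3 of these were above 0 in HFD+AAV-BCKDK. Their median log2 fold change was -0.23 in HFD+AAV-CON and 0.08 with the BCKDK vector. The adipocyte list includes Fabp4, which is also in the endothelial list, so its sum is not particular to fat cells. The part of any of these cells in the falls was not tested.

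In the lists of PPARα targets and of fatty acid oxidation, 1 gene had a shared change, beside 0.904% of all genes tested. Ehhadh, the peroxisomal enzyme of fatty acid oxidation and a PPARα target, was at 36.3, 43.2 and 39.7 CPM under normal diet, 3.72, 8.29 and 5.94 with the control vector and 10.2, 11.7 and 15.6 with the BCKDK vector. Ehhadh fell with log2 fold changes of -2.74 (SE 0.27) with the control vector and -1.67 (SE 0.26) with the BCKDK vector (adjusted p = 0.0229), called in 2 of the 9 fits that left out 1 library (largest adjusted p 0.112). It was the 1 shared gene of 31 tested PPARα targets and lipid uptake genes, beside 0.516% of all genes that fell; under total-count scaling 2 of the 31 were shared falls. The list median was -0.60 in HFD+AAV-CON and 0.05 with the BCKDK vector (-0.0049 under total-count scaling). Ucp3, a mitochondrial carrier and another target, was at 137, 135 and 116 CPM under normal diet, 9.16, 23.2 and 14.5 with the control vector and 26.7, 49.3 and 57.6 with the BCKDK vector. It was lower in all 6 libraries with an adjusted p of 0.0752. Pdk4, the kinase that closes pyruvate dehydrogenase, had -1.79 (SE 0.24) with the control vector and -0.86 (SE 0.23) with the BCKDK vector with an adjusted p of 0.151. None of 27 fatty acid oxidation genes had a shared change: 15 fell in HFD+AAV-CON (20.6% of all genes) and none passed in HFD+AAV-BCKDK. The 15 were 5 without HFD+AAV-CON replicate 3, 7 without ND+AAV-CON replicate 2, 26 without HFD+AAV-CON replicate 2 and 8 under total-count scaling. The medians were -0.60 and 0.17.

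In glucose use, Pgam1, a glycolytic mutase, rose by 1.06 (SE 0.09) with the control vector and 0.71 (SE 0.09) with the BCKDK vector (adjusted p = 0.00906). Pdp1, the phosphatase that opens pyruvate dehydrogenase, fell with -0.96 (SE 0.11) with the control vector and -0.79 (SE 0.11) with the BCKDK vector (adjusted p = 0.0135). They were the shared changes among 41 genes, beside 0.388% and 0.516% of all genes. Neither call remained without ND+AAV-CON replicate 1 or 2 or HFD+AAV-BCKDK replicate 2, or under total-count scaling, and 1 remained without HFD+AAV-BCKDK replicate 1. Pgam1 was at 46.6, 49.6 and 47.8 CPM under normal diet, 107, 91.5 and 102 with the control vector and 84.3, 78 and 72.7 with the BCKDK vector. Ppp1r3c, a glycogen-targeting subunit of protein phosphatase, was at 48.9, 56.1 and 64.6 CPM under normal diet, 111, 113 and 110.5 with the control vector and 140.4, 104 and 74.7 with the BCKDK vector. It had an adjusted p of 0.0741. Abat, the mitochondrial transaminase of GABA, was at 22.2, 19.4 and 23.5 CPM under normal diet, 7.62, 6.35 and 6.63 with the control vector and 6.01, 7.32 and 3.61 with the BCKDK vector. Abat fell with -1.66 (SE 0.22) with the control vector and -1.95 (SE 0.22) with the BCKDK vector (adjusted p = 0.0133). Gnmt, which consumes S-adenosylmethionine, fell with -2.80 and -1.60, Aldh1b1, a mitochondrial aldehyde dehydrogenase, with -0.89 and -0.59, and Slc2a8, a glucose transporter of internal membranes, with -0.98 and -0.63. These last 3 were named after their values were seen. Abat was called in 6 of the 9 fits that left out 1 library, Slc2a8 in 3, Gnmt in 2 and Aldh1b1 in 1.

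The series names the JNK and p38 kinases, and of 38 tested genes of these pathways 2 fell (0.516% of all genes) and none rose. Gadd45a, a stress-induced activator of the kinases above p38, was at 20.5, 23.4 and 18 CPM under normal diet, 4.78, 7.86 and 6.01 with the control vector and 8.46, 7.53 and 8.67 with the BCKDK vector. Gadd45a fell with log2 fold changes of -1.74 (SE 0.18) with the control vector and -1.33 (SE 0.18) with the BCKDK vector (adjusted p = 0.0135), called in 4 of the 9 fits that left out 1 library (largest adjusted p 0.0754). Map2k6, the kinase that phosphorylates p38, was at 3.96, 3.05 and 3.11 CPM under normal diet, 1.3, 1.37 and 1.1 with the control vector and 1.02, 1.52 and 1.45 with the BCKDK vector. Map2k6 fell with -1.42 (SE 0.24) with the control vector and -1.34 (SE 0.24) with the BCKDK vector (adjusted p = 0.0405), called in 1 of the 9 fits that left out 1 library (largest adjusted p 0.166). In both, the high-fat groups lay together below normal diet. Mapk14, p38α itself, had 0.20 (SE 0.08) with the control vector and 0.25 (SE 0.08) with the BCKDK vector with an adjusted p of 0.372. Mapk8, JNK, had -0.36 (SE 0.11) with the control vector and -0.05 (SE 0.11) with the BCKDK vector with 0.969. These are transcript levels and hold nothing on phosphorylation.

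Cardiac stress genes had 2 shared members of 23, both higher, beside 0.388% of all genes that rose; neither call remained under total-count scaling. Flnc, filamin of muscle Z-discs, was at 83.6, 94 and 85.7 CPM under normal diet, 231, 181 and 200.4 with the control vector and 159, 188 and 163 with the BCKDK vector. Flnc rose by 1.22 (SE 0.11) with the control vector and 0.95 (SE 0.11) with the BCKDK vector (adjusted p = 0.00848), called in 7 of the 9 fits that left out 1 library (largest adjusted p 0.0742). Rcan1, a target and inhibitor of calcineurin, rose by 1.61 (SE 0.17) with the control vector and 1.02 (SE 0.17) with the BCKDK vector (adjusted p = 0.0335), called in 2 of the 9 fits that left out 1 library (largest adjusted p 0.154). Nppb, the natriuretic peptide of strained ventricle, was at 76.5, 112 and 75.7 CPM under normal diet, 321, 164 and 248 with the control vector and 204, 157 and 123 with the BCKDK vector. It was above normal diet in all 6 libraries with an adjusted p of 0.213. Nppa, named after its values were seen, had 2.51 (SE 0.61) with the control vector and -0.61 (SE 0.59) with the BCKDK vector, so its values had opposite signs. In the endothelin and angiotensin system, Agtr1a, the angiotensin II receptor, fell with -1.28 (SE 0.18) with the control vector and -0.96 (SE 0.18) with the BCKDK vector (adjusted p = 0.0487), called in 2 of the 9 fits that left out 1 library (largest adjusted p 0.19), beside the rise of Edn3; these were 2 of 18, beside 0.388% of all genes that rose and 0.516% that fell. The levels of Agtr1a were 32.8, 32.9 and 25.4 CPM under normal diet, 8.93, 15.3 and 13.5 with the control vector and 15.9, 15.9 and 15.1 with the BCKDK vector.

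Single members were shared in 3 further lists, each against 0.388% of all genes. Bhlhe40, a repressor of the clock, rose by 1.12 (SE 0.14) with the control vector and 0.76 (SE 0.14) with the BCKDK vector (adjusted p = 0.0425), 1 of 23 clock genes. Dbp, a clock output gene, was at 6.34, 5.75 and 5.18 CPM under normal diet, 1.64, 2.91 and 2.55 with the control vector and 11, 19.8 and 9.76 with the BCKDK vector. It lay below normal diet in every library with the control vector and above it in every library with the BCKDK vector, with an adjusted p of 0.096 for the larger of its 2 p-values. Oas2, an antiviral sensor, rose by 0.92 (SE 0.15) with the control vector and 0.81 (SE 0.15) with the BCKDK vector (adjusted p = 0.0445), 1 of 44 interferon-responsive genes, although 43 of these rose in HFD+AAV-CON (22.7% of all genes). Srxn1, sulfiredoxin, which repairs peroxiredoxins, rose by 0.60 (SE 0.09) with the control vector and 0.64 (SE 0.09) with the BCKDK vector (adjusted p = 0.0223), 1 of 47 antioxidant genes and NRF2 targets. Nqo1, the common marker of NRF2 activity, had 0.00 and 0.30. Bhlhe40, Oas2 and Srxn1 were called in 2, 3 and 4 of the 9 fits that left out 1 library, with largest adjusted p-values of 0.164, 0.178 and 0.122.

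Of the 128 genes 90 are in none of the lists, and those described next were named after their values were seen. Fbxo32, the muscle ubiquitin ligase atrogin, was at 145, 167 and 148 CPM under normal diet, 58.2, 77.1 and 64.4 with the control vector and 96, 105 and 98.6 with the BCKDK vector. Fbxo32 fell with -1.21 (SE 0.11) with the control vector and -0.62 (SE 0.11) with the BCKDK vector (adjusted p = 0.0403). Mef2c, a transcription factor of heart muscle, fell with -0.69 (SE 0.09) with the control vector and -0.51 (SE 0.09) with the BCKDK vector (adjusted p = 0.0438). Hdac9, a deacetylase that binds MEF2, fell with -1.31 (SE 0.10) with the control vector and -0.94 (SE 0.10) with the BCKDK vector (adjusted p = 0.00718). Pik3ip1, a membrane inhibitor of PI3-kinase, was at 68.4, 67.3 and 69.6 CPM under normal diet, 21.3, 28.8 and 23.3 with the control vector and 29, 40.5 and 34.3 with the BCKDK vector and fell with -1.49 and -0.98. Retreg1, a receptor for autophagy of the endoplasmic reticulum, fell with -1.13 and -0.72, and Crebrf, a regulator of the unfolded protein response, with -0.71 and -0.68. Eef2k, the kinase that slows translation elongation, fell with -0.72 and -0.47, and Ccng2, a cyclin of arrested cells, with -0.45 and -0.55. Hbp1, a repressor that overlaps Cog5, fell with -0.39 and -0.42, and under total-count scaling its HFD+AAV-CON value was 0.0044. Of the 9 fits that left out 1 library, Hdac9 and Crebrf were called in 8 and Pik3ip1 in 4. Fbxo32, Retreg1 and Eef2k were called in 2, and Mef2c, Ccng2 and Hbp1 in 1.

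A further 7 genes that rose were picked for close values in both groups and form no list. Tfrc, the transferrin receptor, was at 13.3, 13.7 and 10.5 CPM under normal diet, 21.4, 21.9 and 21.4 with the control vector and 22.2, 26.2 and 19.6 with the BCKDK vector. Tfrc rose by 0.79 (SE 0.13) with the control vector and 0.86 (SE 0.13) with the BCKDK vector (adjusted p = 0.0307). Slc39a14, a transporter of zinc and iron, rose by 0.70 (SE 0.10) with the control vector and 0.88 (SE 0.10) with the BCKDK vector (adjusted p = 0.0159). Slc38a2, a carrier of neutral amino acids, rose by 0.56 (SE 0.09) with the control vector and 0.56 (SE 0.09) with the BCKDK vector (adjusted p = 0.0265). Kpna2, a nuclear import adaptor, rose by 0.66 (SE 0.08) with the control vector and 0.72 (SE 0.08) with the BCKDK vector (adjusted p = 0.00905), called in 8 of the 9 fits that left out 1 library (largest adjusted p 0.0742). Papola, a poly(A) polymerase, Rbm15 and Mettl16, both of RNA methylation, rose by 0.52 and 0.45, 0.79 and 0.87 and 0.44 and 0.56 (HFD+AAV-CON first). Of the same 9 fits, Slc39a14 was called in 5, Tfrc, Slc38a2, Papola and Rbm15 in 2, and Mettl16 in 1. The difference between the high-fat groups did not pass for these 7 genes, which follows from how they were picked. All 6 high-fat libraries lay above all 3 normal-diet libraries in each, as in all 55 shared genes that rose.

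The lists with no shared change cover much of what HFD+AAV-CON alone showed. None of 72 nuclear genes of oxidative phosphorylation, 20 of the tricarboxylic acid cycle, 28 of ketone body and branched-chain amino acid use, 29 of contraction, 26 of antigen presentation, 40 cytokines and chemokines and 37 cell cycle genes had one in this fit. With upper-quartile factors 1 gene of ketone and branched-chain use and 1 of the tricarboxylic acid cycle fell in both groups, and under total-count scaling 2 of the former did. In HFD+AAV-CON 67 of the 72 oxidative phosphorylation genes fell (20.6% of all genes; 15 without HFD+AAV-CON replicate 3, 18 without ND+AAV-CON replicate 2 and 45 under total-count scaling) and 25 of the 26 antigen presentation genes rose (22.7%), while in HFD+AAV-BCKDK none of either list passed (1.27% and 1.18% of all genes). None of 22 genes of lipid droplets, 22 of fatty acid synthesis, 23 of cholesterol synthesis or 34 of insulin signalling was shared. Over all genes tested 0.904% had a shared change, so the absence of one from lists of these sizes is near that share. Of the fits that left out 1 library, the one without HFD+AAV-CON replicate 2 had the most calls. In it 3 genes of ketone and branched-chain use, 2 of insulin signalling and 1 each of the tricarboxylic acid cycle, cholesterol synthesis and the cytokines were shared. No marker in the 15 cell type lists had a shared change.

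**Figure D5:**
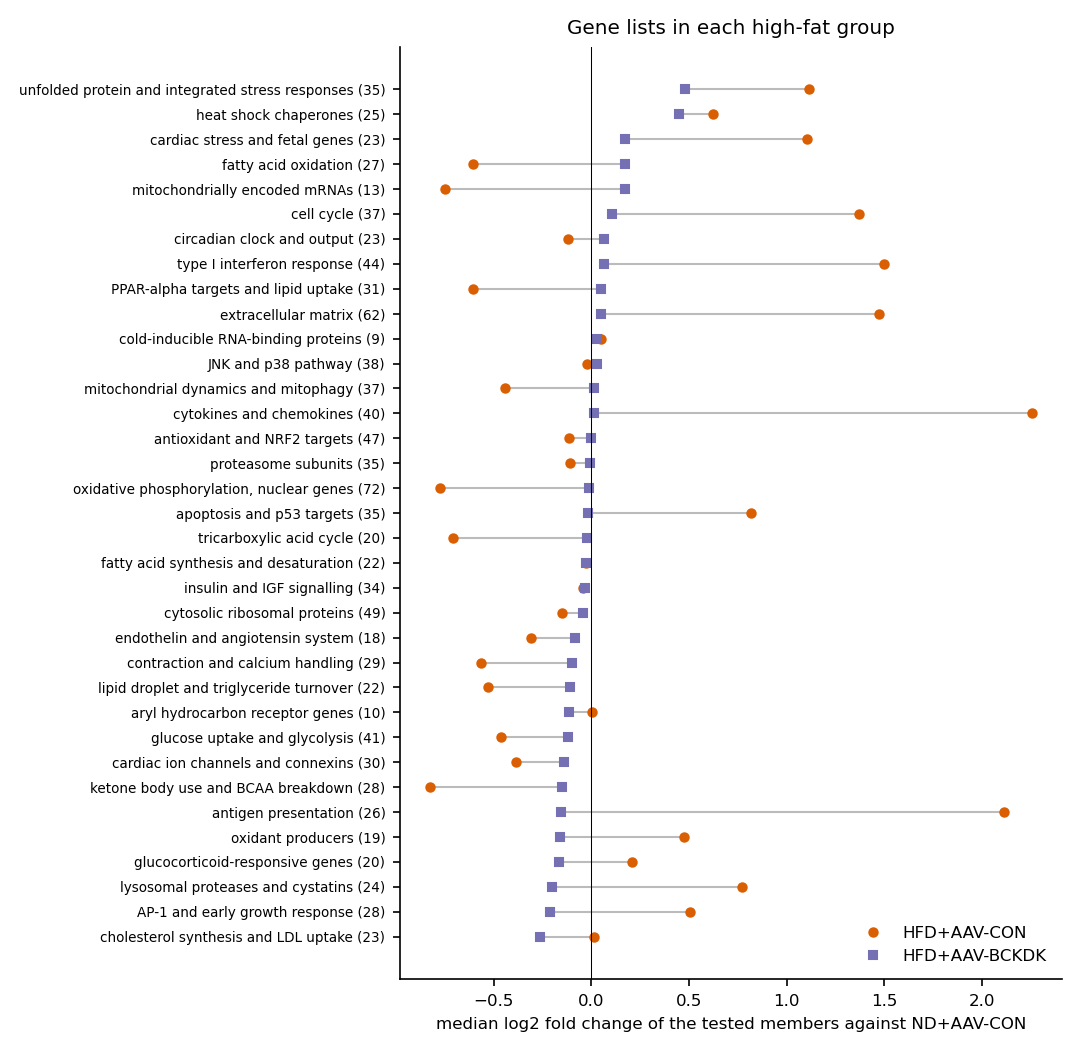
Median log2 fold change against ND+AAV-CON (x axis) of the tested members of the 35 pathway lists (number tested in brackets), in HFD+AAV-CON (circles) and HFD+AAV-BCKDK (squares). The lists of the unfolded protein response and of heat shock chaperones have the highest medians in HFD+AAV-BCKDK, 0.48 and 0.45, while the matrix, interferon and antigen presentation lists are far from 0 in HFD+AAV-CON alone.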

How the data were processed

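Left ventricular RNA of 9 samples was sequenced as mRNA libraries. The authors deposited raw read counts per gene with no normalization; HISAT2 2.0.5 and mm10 are named per the submitters' processing notes, while the counting tool, annotation and use of strand are not stated in the sources used here. Of 26178 entries, 22036 annotated genes were used; 4142 unnamed loci, which held 1.02% to 6.02% of a library's counts, were left out. In R 4.3.3, edgeR 4.0.16 filtered genes by group (filterByExpr, 14160 left), scaled libraries with TMM and fitted a quasi-likelihood model with 1 coefficient per group to all 9 libraries. Each high-fat group was tested against ND+AAV-CON. A shared diet change had the same sign in both and a Benjamini-Hochberg adjusted larger p under 0.05; unless stated otherwise, an adjusted p in the text is that value from edgeR, and differences between high-fat groups were tested in the same fit. The 2 high-fat groups were also averaged with equal weight. Fold changes are log2 against ND+AAV-CON, with the SE from the F statistic. CPM uses TMM-scaled sizes.

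Genes were named by a rule: Bckdk; the 12 that rose and the 12 that fell with the largest smaller change among shared genes whose average log2 CPM reached 1 and whose 6 and 3 libraries did not overlap, predicted symbols left out; and up to 6 members of each list with the smallest larger p. Of the 12 and 12 genes, 2 are not reported here; of the list members, not all are printed, and those printed were chosen after their values were seen. Members, lists and rule were chosen with earlier results of these data known. Samples of a group are biological replicates per the labels, which do not say whether mice were pooled. Counts of replicates differed by more than sampling noise in every pair. The chi-square per degree of freedom was 14.9 to 18.2 within HFD+AAV-BCKDK, 21.5 to 23.3 within ND+AAV-CON and 63.6 to 261 within HFD+AAV-CON. The model fitted 1 spread per gene to all 9 libraries, so an SE does not measure the spread of its own group. Replicate numbers did not pair the samples: deviations of same-numbered samples correlated between -0.29 and 0.28. Positions are from GENCODE mouse release 21 (GRCm38). The fit was tested on simulated data. Alternatives were other scalings, filters, tools, thresholds and left-out libraries, with DESeq2 1.42.0 and limma 3.58.1 among them.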

Additional observations from a re-analysis of the deposited data

Results flagged for a closer look

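For 30 genes with a shared diet change named in the text, the size of the change also differed between the 2 high-fat groups in the edgeR fit, given here as the log2 difference HFD+AAV-BCKDK minus HFD+AAV-CON with its adjusted p. Among chaperones and stress genes that rose, HFD+AAV-BCKDK lay below HFD+AAV-CON by -1.35 (adjusted p = 0.00126) for Sdf2l1, -1.29 (adjusted p = 0.00177) for Mthfd2, -1.12 (adjusted p = 0.00126) for Creld2, -0.83 (adjusted p = 0.00142) for Manf, -0.72 (adjusted p = 0.00124) for Hyou1, -0.68 (adjusted p = 0.00128) for Pdia6, -0.63 (adjusted p = 0.00207) for Calr, -0.54 (adjusted p = 0.00471) for Hsp90b1 and -0.48 (adjusted p = 0.00366) for Hspa5. Among matrix genes the differences were -2.74 (adjusted p = 0.000606) for Thbs1, -0.54 (adjusted p = 0.0157) for P4ha1, -0.45 (adjusted p = 0.00714) for Col4a1 and -0.41 (adjusted p = 0.01) for Serpinh1. Clec4d differed by -1.14 (adjusted p = 0.00688), Rcan1 by -0.59 (adjusted p = 0.0243) and Pgam1 by -0.35 (adjusted p = 0.0129).

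Among genes that fell, a positive difference means a smaller fall in HFD+AAV-BCKDK. It was 1.42 (adjusted p = 0.0024) for Cngb3, 1.20 (adjusted p = 0.0126) for Gnmt, 1.19 (adjusted p = 0.0117) for Klhl33, 1.08 (adjusted p = 0.013) for Ehhadh, 0.63 (adjusted p = 0.00475) for Dach1, 0.58 (adjusted p = 0.00497) for Fbxo32, 0.50 (adjusted p = 0.0204) for Pik3ip1, 0.40 (adjusted p = 0.0261) for Retreg1, 0.36 (adjusted p = 0.0219) for Hdac9, 0.35 (adjusted p = 0.0229) for Slc2a8, 0.29 (adjusted p = 0.049) for Cirbp and 0.25 (adjusted p = 0.0399) for Eef2k. Edn3 and Rbm3 went the other way: Edn3 rose further in HFD+AAV-BCKDK by 1.46 (adjusted p = 0.00284), and Rbm3 fell further, with -0.60 (adjusted p = 0.00473). Over all 128 shared genes 45 differed between the high-fat groups (38.2% of all genes tested did), 43 of them with the larger change in HFD+AAV-CON. The 45 were 30 without HFD+AAV-CON replicate 3, 30 to 55 over the fits that left out 1 library, and 72 under total-count scaling. The groups have 3 libraries each and were too small for a test of single outlying libraries.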

How the results depend on the processing

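Shared changes numbered 24 higher and 36 lower under total-count scaling, 226 and 222 in DESeq2, 133 and 154 when each comparison was adjusted by itself, and 11 and 9 at a false discovery rate of 0.01. Leaving out 1 library gave 2 to 112 higher and 1 to 130 lower, the lowest without ND+AAV-CON replicate 1 and the highest without HFD+AAV-CON replicate 2. Of the 128 shared genes 123 remained under RLE factors, 128 under upper-quartile factors, 128 in DESeq2, 114 in limma-voom and 104 in fits of 2 groups alone, where Cyp1a1 was among those lost. Genes with opposite signs numbered 17 in DESeq2, 2 when each comparison was adjusted by itself and 0 to 8 with 1 library left out, the highest without HFD+AAV-CON replicate 2. For the average of both high-fat groups, the counts were 524 lower under total-count scaling, 122 higher and 178 lower when the 6 libraries were pooled with no vector term, 356 and 351 at a false discovery rate of 0.01, and 390 to 2367 higher and 411 to 2560 lower with 1 library left out. Genes that differed between the high-fat groups numbered 2058 at a false discovery rate of 0.01 and 2847 to 6978 with 1 library left out.

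Leaving out HFD+AAV-CON replicates 1 and 3 together, an alternative chosen after seeing the data, gave 54 higher and 68 lower shared genes, of which 69 were among the 128, 1 gene with opposite signs, 899 higher and 800 lower for the average, and 725 between the high-fat groups; the lone HFD+AAV-CON library is then assumed to vary like the others. Keeping the unnamed loci gave 39 higher and 49 lower shared genes, none of them among the 1194 unnamed loci tested. In HFD+AAV-CON, 3 named genes changed sign under total-count scaling, Abhd4 to 0.041, Hbp1 to 0.0044 and Mapk8 to 0.040. With the replicate number as a block, 18 genes rose and 15 fell, all 33 among the 128; since several same-numbered samples deviated in opposite directions, not every sample correlated best with its own number. The cause of these shifts was not tested, and with 3 libraries a group few degrees of freedom remain.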

Other observations

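Further genes outside the lists also changed in both high-fat groups, named after their values were seen. Alpl, tissue-nonspecific alkaline phosphatase, was at 19.3, 21.7 and 20.3 CPM under normal diet, 30.2, 44.3 and 33.1 with the control vector and 40.4, 35.6 and 31.3 with the BCKDK vector and rose by 0.81 (SE 0.15) with the control vector and 0.81 (SE 0.15) with the BCKDK vector (adjusted p = 0.0446). Dok7, an adaptor of the muscle-specific kinase at the neuromuscular junction, rose by 0.90 (SE 0.13) with the control vector and 1.06 (SE 0.13) with the BCKDK vector (adjusted p = 0.0183), and Tspan9, a tetraspanin, by 0.81 (SE 0.08) with the control vector and 0.65 (SE 0.08) with the BCKDK vector (adjusted p = 0.0113). Hist1h1c, a linker histone, was at 120.4, 119 and 120.1 CPM under normal diet, 63.5, 68.7 and 61.8 with the control vector and 59.4, 69.3 and 73.2 with the BCKDK vector and fell with -0.89 (SE 0.09) with the control vector and -0.83 (SE 0.09) with the BCKDK vector (adjusted p = 0.00718). Its high-fat groups overlapped, and both lay well below normal diet. Pde1c, a calcium-dependent phosphodiesterase of heart muscle, fell with -0.71 and -0.85 (HFD+AAV-CON first), Asb18, an ankyrin-repeat protein, with -1.08 and -0.98, and Xrn2, a nuclear exonuclease, with -0.63 and -0.80. None of these 7 genes differed between the high-fat groups past the threshold. Of the 9 fits that left out 1 library, Hist1h1c was called in 7, Tspan9 in 6 and Dok7 and Asb18 in 4. Pde1c was called in 3 and Alpl and Xrn2 in 2.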
